A study of Caenorhabditis elegans with 4 samples.

Results

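The contractile apparatus of the C. elegans pharynx was followed through 6 genes out of 19912 in the deposited gene table: the myosin heavy chains let-75 and myo-2, the troponins tnc-2 and tnt-4, and the transcription factors ceh-22 and pha-4. They were picked by gene name, with the counts of arsenite and control worms already known, so their differences between these conditions are given below as a description and carry no test. All of the worms were N2 wild-type (var. Bristol) adults, taken 48 h after the L4 larval stage from plates with heat-inactivated OP50 bacteria. The control worms received the solvent water (0 nM arsenite) and the treated worms 100 nM arsenite, a trivalent form of arsenic, and each condition was sequenced as 2 libraries from total RNA of whole animals. The deposited values rest on 30583832 to 35218389 reads per library. Whether replicates were separate cultures is not given in the sources used here, and the spread between them may be technical.

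The pharynx is the muscular pump with which the worm takes up and grinds bacteria, and its muscle cells build sarcomeres from isoforms of their own. The myosins LET-75 (also called MYO-1) and MYO-2 form the thick filaments of these cells, whereas the body wall uses UNC-54 and MYO-3. Troponin C senses calcium and troponin T anchors the troponin complex to tropomyosin on the thin filament. PHA-4, a FoxA factor, sets the identity of the cells of the pharynx, and CEH-22, an NK-2 homeodomain factor related to vertebrate Nkx2-5, activates myo-2 in pharyngeal muscle. Neither factor is confined to this muscle. PHA-4 is also present in gut and gonad and is required for the long life of worms on a restricted diet, and CEH-22 also acts in the somatic gonad. The name pharyngeal muscle genes therefore fits the 4 structural genes more closely than the 2 factors. As whole animals were used, at least 2 readings cannot be told apart for any pharyngeal muscle gene below. They are a difference within pharyngeal muscle and a difference in its share of the RNA of the animal. For genes also active elsewhere, such as pha-4 and ceh-22, a difference in another tissue cannot be told apart either.

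All of the 6 genes passed the filter on low counts. In 6 of 6, both arsenite libraries lay below both controls after normalization, as they did in 19.1% of the 13776 genes tested (in 17.1% both were above), and nothing is read from this count because the same contrast was known when the genes were picked. The log2 fold changes ran from -0.33 for myo-2 to -0.04 for pha-4, with a median of -0.22, while the median of all genes tested was 0.0055. With all 4 libraries the structural genes had lower log2 fold changes than the factors, but without control replicate 1 tnt-4 was at -0.14 and ceh-22 at -0.15.

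**Figure D1:**
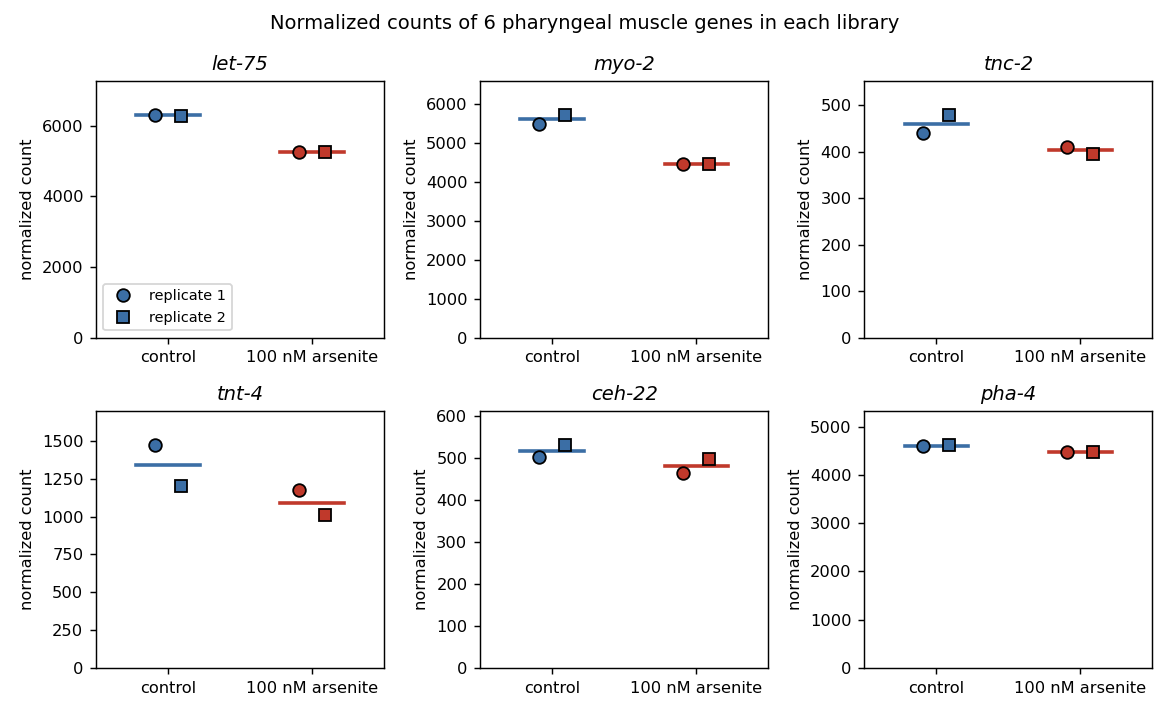
Normalized counts (y axes, starting at 0) of each of the 6 genes in the control libraries (blue) and the 100 nM arsenite libraries (red). Circles are replicate 1, squares replicate 2 and lines the mean of 2 libraries. For let-75 and myo-2 the arsenite libraries were at 5262, 5263, 4446 and 4461, well under the controls. The groups nearly met for ceh-22, tnt-4 and pha-4, with gaps of 0.952%, 2.26% and 2.45% of the lower control.

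The myosin let-75, annotated by RefSeq as myo-1, lies on chromosome I of WBcel235 from 7258946 to 7267057. Scaled to library size, it held 6320 and 6266 normalized counts in the controls, against 5262 and 5263 with arsenite (pairs of values are given in the order replicate 1, replicate 2). The replicates of each condition were close to each other, and the higher arsenite library was 16% below the lower control. Means were 6293 ± 38.5 (SD, n = 2) and 5262 ± 1.12 (SD, n = 2), which is -0.26 in log2 fold change with a standard error of 0.06. The other pharyngeal myosin, myo-2, lies on chromosome X from 12468061 to 12475348. It had normalized counts of 5482 and 5728 in the controls, against 4446 and 4461 with arsenite. Here the gap was widest, the higher arsenite library being 18.6% below the lower control. Means were 5605 ± 174 (SD, n = 2) and 4454 ± 10.1 (SD, n = 2), with a log2 fold change of -0.33 and a standard error of 0.06. Counting error alone was 1.23% to 1.52% of the reads of either gene in a library. The arsenite libraries differed by less than that, 0.0302% for let-75 and 0.32% for myo-2, so their SD understates the error. With 1 library left out, the log2 fold change stayed between -0.26 and -0.25 for let-75 and between -0.37 and -0.30 for myo-2.

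Troponin C, coded by tnc-2 on chromosome II from 10466852 to 10468358, was measured with far fewer reads, 397 to 461 per library. The normalized count was 439.6 in control replicate 1, 479.9 in control replicate 2, 409.7 in arsenite replicate 1 and 395.5 in arsenite replicate 2. Control replicate 1 was nearer to arsenite replicate 1 than to the other control, so that the groups were apart by less than the controls differed between themselves. The log2 fold change was -0.19 with a standard error of 0.10, and it was -0.13 without control replicate 2 and -0.26 without control replicate 1. Counting error was 4.66% to 5.02% per library. The exons of tnc-2 overlap those of clec-143 on the opposite strand, which the libraries do not separate, but clec-143 held only 10 to 13 counts per library.

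Troponin T, coded by tnt-4 on chromosome V from 1989471 to 1992918, was the least repeatable of the structural genes. The controls were at 1474 and 1200 normalized counts, the arsenite libraries at 1173 and 1010. The step between the controls was larger than that from control replicate 2 to arsenite replicate 1, and the groups missed each other by 2.26% of the lower control. Means were 1337 ± 194 (SD, n = 2) and 1092 ± 116 (SD, n = 2), with a log2 fold change of -0.30 and a standard error of 0.11. This value was -0.43 without control replicate 2 and -0.14 without control replicate 1, so its size rested on which control was used. Without arsenite replicate 2 it was -0.19.

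The third subunit of the pharyngeal troponin complex, troponin I, is coded by tni-4, which was not among the 6 genes. Its normalized count was 1151 and 1101 in the controls, against 1010 and 898 with arsenite. Both arsenite libraries were again the lower ones. The log2 fold change was -0.24 with a standard error of 0.08 and did not pass edgeR's quasi-likelihood test (adjusted p = 0.514). By its deposited RPKM, a read count scaled by transcript length and library depth, tni-4 was at 43.6 and 40.6 in the controls, above tnt-4 and tnc-2.

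The homeodomain factor ceh-22 is on chromosome V from 10672627 to 10675769. It had normalized counts of 502.5 and 531.2 in the controls, against 463.3 and 497.8 with arsenite. Arsenite replicate 2 was within 0.952% of control replicate 1, which is less than the counting error of 6.82% to 7.41% on its longest transcript, so a difference was not detectable between these libraries at this depth. The log2 fold change was -0.10 with a standard error of 0.10, and leaving out 1 library placed it between -0.16 (arsenite replicate 2 left out) and -0.05 (arsenite replicate 1 left out). Exons of ceh-22 overlap those of the non-coding gene F29F11.19 on the opposite strand. The FoxA factor pha-4, on chromosome V from 20753052 to 20760317, had normalized counts of 4594 and 4629 in the controls, against 4478 and 4482 with arsenite. Its replicates differed by 0.76% in the controls and 0.0735% with arsenite. Both are less than the counting error of 2.3% to 2.41% on its longest transcript, so this closeness is not a measure of precision. The arsenite mean of pha-4 was 97.1% of the control mean. The log2 fold change of -0.04 was smaller than its standard error of 0.06, and it became 0.0035 when a dependence on transcript length was removed from each library. The median over all genes in that fit was 0.034, so pha-4 remained below it. For comparison, the arsenite mean was 83.6% of the control mean for let-75, 79.5% for myo-2, 87.6% for tnc-2, 81.6% for tnt-4 and 93.0% for ceh-22.

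Levels can be compared between genes only per length, for which the deposited RPKM values were used. In control worms the highest of the 6 genes was let-75 with a mean RPKM of 30.0, followed by pha-4 at 28.7, myo-2 at 27.5, tnt-4 at 21.0, tnc-2 at 17.7 and ceh-22 at 5.4. In the controls the ranges of no neighbouring pair overlapped, although tnt-4 (23.4 and 18.6) and tnc-2 (17.2 and 18.2) nearly met. With arsenite pha-4 came first at a mean RPKM of 27, before let-75 at 24.3, myo-2 at 21.2, tnt-4 at 16.6, tnc-2 at 15 and ceh-22 at 4.87. The ranges of tnt-4 and tnc-2 then overlapped. Both pharyngeal myosins were far below unc-54, and tnc-2 far below pat-10. The RPKM of unc-54, the major body wall myosin, was 151 to 177 over the 4 libraries, and that of pat-10, the body wall troponin C, 407 to 444.

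Ratios of RPKM within a library do not depend on how libraries are scaled. The ratio of myo-2 to pha-4 was 0.941 and 0.976 in the controls, against 0.783 and 0.785 with arsenite. The myosin was thus lower against the factor in both arsenite libraries. The ratio of myo-2 to ceh-22 was 5.12 and 5.06 in the controls, and 4.50 and 4.20 with arsenite. Between the 2 pharyngeal myosins, myo-2 over let-75, it was 0.892 and 0.941 in the controls, and 0.870 and 0.872 with arsenite. Against the body wall myosins the picture was divided. The ratio of myo-2 to unc-54 was 0.166 and 0.156 in the controls, and 0.139 and 0.138 with arsenite, without overlap. The ratio of myo-2 to myo-3, the minor body wall myosin, was 0.555 and 0.625 in the controls, and 0.560 and 0.552 with arsenite, so that control replicate 1 lay between the arsenite libraries. These ratios use the counts with which the genes were picked and are not tested.

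For let-75, myo-2 and tnc-2 the table holds 1 transcript each, for tnt-4 2 and for ceh-22 and pha-4 3 each. A deposited gene count is the sum over its transcripts, so a read in a shared exon of these last 3 genes enters more than once. The pha-4 gene count of 4818 in control replicate 1, for instance, comes from 1894 counts on the transcript of 2270 nt, 1522 on that of 1480 nt and 1402 on that of 1239 nt. Relative to the longest transcript, the pha-4 transcript of 1480 nt held 80.4% and 78.6% of the counts in control replicates 1 and 2, and 79.0% in each arsenite library. That of 1239 nt held 74% and 72.5% in the controls, and 72.5% and 72.4% with arsenite. The proportions of the transcripts of pha-4 thus hardly varied among the 4 libraries. For tnt-4 the transcript of 930 nt held 89.5% and 85.0% of the counts of that of 1048 nt in the controls, and 88.6% and 88.8% with arsenite. The ceh-22 transcript of 852 nt held 81.8% and 78.5% of the counts of the longest in the controls, and 78.6% and 77.2% with arsenite, on only 182 to 215 counts of the longest. Both tnt-4 transcripts had their highest RPKM in control replicate 1, 23.3 and 23.5, and their lowest in arsenite replicate 2, 15.2 for each.

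**Figure D2:**
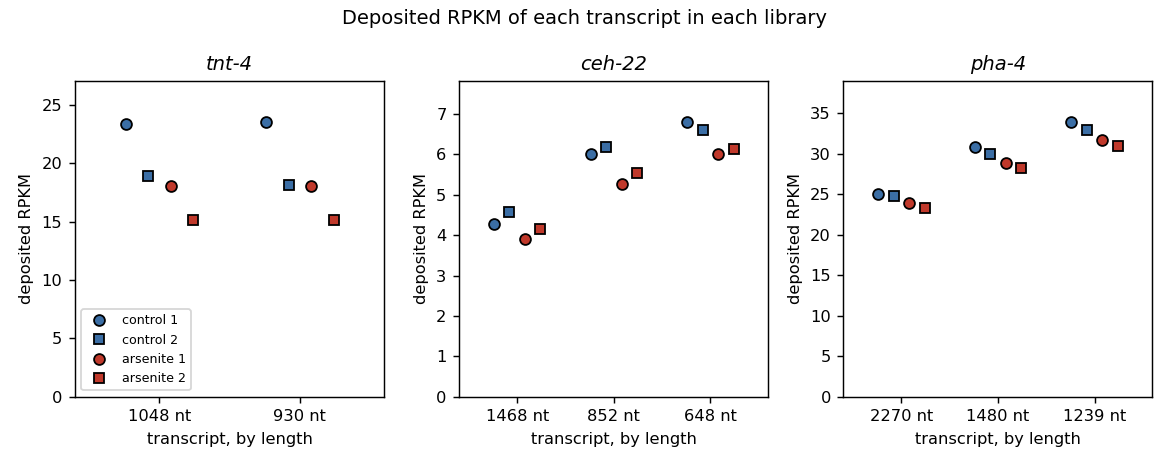
Deposited RPKM (y axes, starting at 0) of each transcript of tnt-4, ceh-22 and pha-4, ordered by length in nt on the x axes. Blue symbols are controls, red symbols arsenite, circles replicate 1 and squares replicate 2. Transcripts of 1 gene share exons and reads. In both tnt-4 transcripts control replicate 1 was highest (23.3 and 23.5) and arsenite replicate 2 lowest (15.2 for each).

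Transcript length moved with the difference between conditions across the whole table, mainly at its short end. In the decile of genes with the shortest transcripts, 108 to 540 nt, the median log2 fold change was 0.094, whereas it was 0.0051 in the decile with the longest, 2769 to 38347 nt. The 6 genes lie outside the shortest decile, with mean transcript lengths of 805 nt for tnc-2, 989 nt for tnt-4 and for ceh-22, 1663 nt for pha-4, 6327 nt for myo-2 and 6510 nt for let-75. In the deciles that hold them the median log2 fold change was between -0.012 and 0.0098. After a correction for length within each library, the log2 fold changes were -0.23 for let-75, -0.31 for myo-2, -0.16 for tnc-2, -0.25 for tnt-4 and -0.06 for ceh-22, against a median over all genes of 0.034 in that fit.

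**Figure D3:**
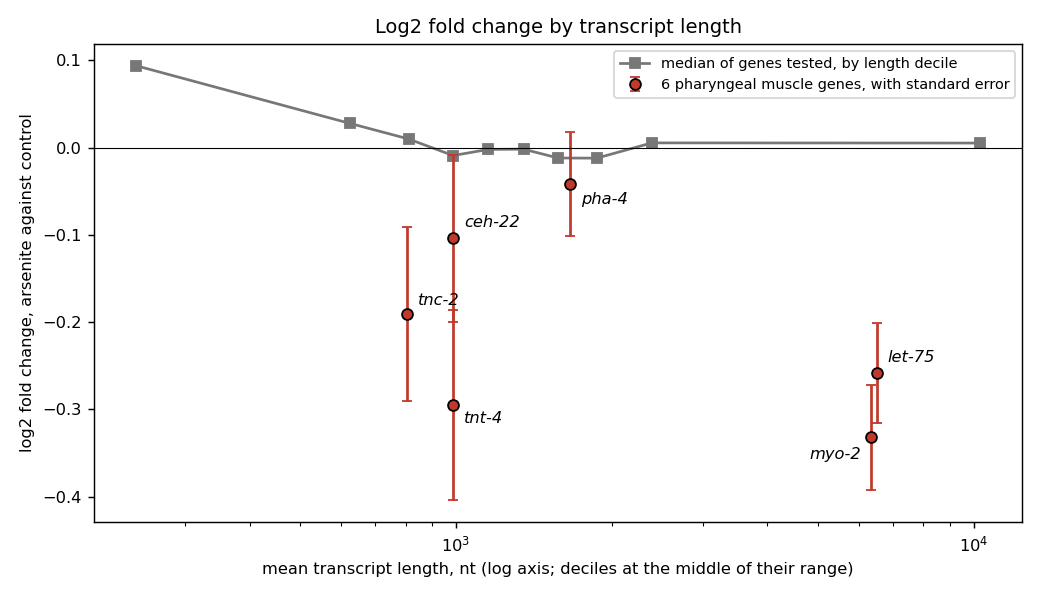
Log2 fold change of arsenite against control (y axis) by mean transcript length in nt (x axis, logarithmic). Grey squares are medians of the genes tested in each decile of length, between -0.012 and 0.094, and red circles the 6 genes with their standard errors. The myosins let-75 and myo-2, of 6510 and 6327 nt, lie far below genes of like length, and pha-4 within its standard error of them.

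The genes whose pattern over the 4 libraries was most like that of myo-2 were sought by the distance between centred log2 normalized counts. The nearest were che-14, F46E10.11, ins-33, C05G5.1 and T10H9.1, at distances of 0.013 to 0.038. They were measured at 16.2 to 290 normalized counts. Among all 13775 other genes tested, let-75 was at rank 71, tnc-2 at 338, ceh-22 at 1289, pha-4 at 2433 and tnt-4 at 2734. Of the body wall genes described below, myo-3 was at rank 295, deb-1 at 402, atn-1 at 406 and unc-52 at 424. The light chain gene mlc-3, shared by both muscles, was at 457 and tni-4 at 517. The rest of the pharyngeal muscle, shared sarcomere and body wall genes listed below lay further from myo-2. With 4 libraries such a likeness is a description only.

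Among other genes that act in pharyngeal muscle, none passed the threshold, while every one tested was lower with arsenite by its fitted value. They were not chosen as confined to this muscle, so their values from whole animals can include other tissues. Of 11 such genes tested, which code for channels, receptors, gap junctions, the sodium-potassium pump (eat-6) and troponin I among others, edgeR's quasi-likelihood test called 0 at an adjusted p under 0.05, as it did 0% of all genes tested in either direction. DESeq2 and edgeR's exact and likelihood ratio tests also called 0. Among all genes tested, the likelihood ratio test called 0.719% lower and 0.421% higher, and DESeq2 0.16% lower and 0.0581% higher. At an unadjusted p under 0.05 the quasi-likelihood test had 5 lower and 0 higher, which compares with 5.05% lower and 2.16% higher among all genes tested. All 11 had log2 fold changes below 0, as had 48.2% of all genes, from -0.43 to -0.05 with a median of -0.22. In 7 of the 11 both arsenite libraries lay below both controls, as in 19.1% of all genes. For eat-2 and eat-5, picked out after their values were seen, the arsenite libraries lay between the controls. The gene at the median was eat-5, with a standard error of 0.30. It had normalized counts of 63.9 and 33.1 in the controls, and 43.3 and 41.1 with arsenite. The innexin inx-6, a gap junction protein of pharyngeal muscle, had normalized counts of 350.9 and 322.8 in the controls, against 262.1 and 238.8 with arsenite. Its log2 fold change was -0.43 with a standard error of 0.11 (quasi-likelihood, adjusted p = 0.333, and by edgeR's exact test, adjusted p = 0.073). The glutamate-gated chloride channel gene avr-15, through which M3 neurons shorten each pump, was at 524.5 and 514.1 in the controls and at 463.3 and 382.2 with arsenite (quasi-likelihood, adjusted p = 0.55). The potassium channel gene exp-2, which ends the action potential of this muscle, was at 707.6 and 584.7 in the controls and at 571.7 and 420.4 with arsenite. It passed the quasi-likelihood test only without arsenite replicate 1 (log2 fold change -0.62, adjusted p = 0.00975) and was picked out after its values were seen. The exon overlaps of avr-15, exp-2 and tni-4 with neighbouring genes cannot be separated by strand. The study's own list of changed genes, drawn up on these samples, holds myo-2 and inx-6.

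Sarcomere genes that the pharynx shares with the body wall were also lower by their fitted values. Of 5 tested (mlc-1, mlc-2 and mlc-3 for myosin light chains, unc-15 for paramyosin and lev-11 for tropomyosin), DESeq2 and each of the edgeR tests (quasi-likelihood, exact, likelihood ratio) called 0, and 1 was lower at an unadjusted p under 0.05. That gene was mlc-3, with normalized counts of 7875 and 8300 in the controls and 7352 and 7045 with arsenite, a log2 fold change of -0.17 with a standard error of 0.06. The log2 fold changes of lev-11 and mlc-1 were -0.12 and -0.11, and the median of this list was -0.11. Transcription factors of pharynx development other than the 2 above had log2 fold changes of either sign. Of 9 listed, 8 were tested, 0 were called by any of these 4 tests, 1 was lower at an unadjusted p under 0.05 and 5 had negative log2 fold changes, with a median of -0.06. The gene lower at an unadjusted p was ceh-24, a homeobox gene of the m8 muscle cell, at 55.3 and 38.5 normalized counts in the controls and at 29.9 and 31.5 with arsenite. The T-box gene tbx-2, needed to make anterior pharyngeal muscle, was at 1103 and 1106 in the controls and at 1059 and 1028 with arsenite, and pha-1 at 1285 and 1022 in the controls and at 1317 and 1242 with arsenite.

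The lists of pharyngeal gland and pharyngeal cuticle genes included some with larger differences. Of 8 genes of the pharyngeal glands, all tested, the quasi-likelihood test and DESeq2 called 0. The exact test called 2 lower, phat-2 and phat-4, where it called 0.617% of all genes lower and 0.392% higher, and the likelihood ratio test also called 2. At an unadjusted p under 0.05 by the quasi-likelihood test, 3 were lower and 0 higher, where 5.05% and 2.16% of all genes were. The gene phat-4 had normalized counts of 171.6 and 204.2 in the controls, against 115.6 and 108.9 with arsenite. Its log2 fold change was -0.74 with a standard error of 0.15 (exact test, adjusted p = 0.00272, and quasi-likelihood, adjusted p = 0.233). For phat-2, whose exons overlap those of anr-10 on the opposite strand, the normalized counts were 247.9 and 225.5 in the controls and 164.1 and 162.4 with arsenite (exact test, adjusted p = 0.021). Of the 8 gland genes, 5 had negative log2 fold changes, against 48.2% of all genes, and the median was -0.23. Above 0 were phat-3, phat-6 and kel-1, at 0.10, 0.15 and 0.06. The summed level of the 8, most of it from kel-1, was 97.5% and 103% of the control mean in the controls and 103% and 100.2% with arsenite. Of 12 pharyngeal cuticle genes of the abu and pqn families in the table, 7 were tested, with 5 lower at an unadjusted p under 0.05 (5.05% of all genes were). The exact test and the likelihood ratio test each called 1 of them lower, pqn-71, and the quasi-likelihood test and DESeq2 called 0. The gene pqn-71 was at 123.0 and 125.1 normalized counts in the controls and at 75.3 and 53.5 with arsenite, a log2 fold change of -0.95 (exact test, adjusted p = 0.0012). The next genes of these lists by p, phat-5, abu-11 and pqn-74, had log2 fold changes of -0.45, -0.55 and -0.41 and passed none of the 4 tests on all libraries. Without arsenite replicate 1, phat-5 passed the quasi-likelihood test (adjusted p = 0.0327) and the exact test (adjusted p = 0.0298). When arsenite replicate 2 was left out, phat-2, phat-4 and pqn-71 all failed the exact test. The call was also lost for phat-4 without control replicate 2, and for phat-2 without control replicate 1 or arsenite replicate 1. Likeness of sequence within the phat, abu and pqn families was not measured here. Uniquely mapped reads are uncertain for those of their genes that share sequence with others. The study's own list holds phat-2, phat-4, phat-5, abu-8, abu-11, pqn-71 and pqn-74, so these counts are not independent evidence of a direction.

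**Figure D4:**
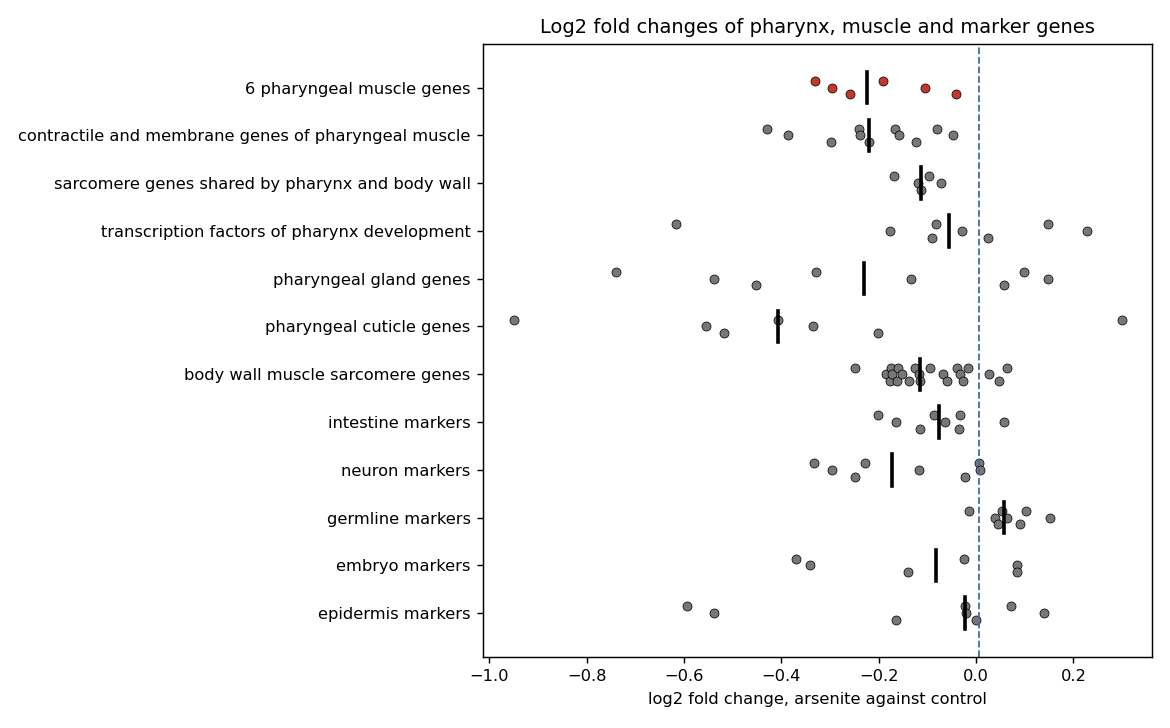
Log2 fold change of arsenite against control (x axis) for the 6 genes (red) and for the tested genes of each other list (grey). Black bars are list medians and the dashed line is the median of all genes tested, 0.0055. Medians were -0.22 for the 6 genes, -0.22 for other genes that act in pharyngeal muscle, -0.12 for body wall muscle and 0.06 for the germline.

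Body wall muscle serves as the nearest comparison. Of its 22 sarcomere and attachment genes, all tested, the 3 edgeR tests and DESeq2 called 0, and 6 were lower and 0 higher at an unadjusted p under 0.05 (5.05% and 2.16% of all genes). Their log2 fold changes ran from -0.25 to 0.06 with a median of -0.12, and 11 of the 22 had both arsenite libraries below both controls, as had 19.1% of all genes. The gene at the low end was myo-3, with normalized counts of 9531 and 8849 in the controls and 7664 and 7797 with arsenite, a log2 fold change of -0.25 with a standard error of 0.06 (quasi-likelihood, adjusted p = 0.302). It passed the exact test only without control replicate 2 (adjusted p = 0.00113), where tni-1, unc-89 and ttn-1 passed too. Without control replicate 1, unc-52 (perlecan) passed the quasi-likelihood test (log2 fold change -0.26, adjusted p = 0.0213). These 4 other genes were picked out after their values were seen. For unc-54 the counts were 35641 and 39504 in the controls and 34587 and 34787 with arsenite, a log2 fold change of -0.12. Next by p were deb-1 (vinculin) at 12916 and 13206 in the controls and 11769 and 11385 with arsenite, and atn-1 (alpha-actinin) at 6316 and 6698 in the controls and 5874 and 5664 with arsenite. Whether pharyngeal and body wall genes differ from each other was not tested.

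Summed levels place the 6 genes beside other tissues of the animal. Relative to the mean of both controls, the 6 genes together were at 99.9% and 100.1% in the controls and at 86.2% and 85.6% with arsenite. They were picked with this contrast known, so their sum is a description and no evidence beside the other lists. Most of it came from let-75, myo-2 and pha-4, and reads in shared exons of pha-4 enter more than once. The body wall list was at 99.9% and 100.1% in the controls and at 94.6% and 92.3% with arsenite. Of 8 neuron markers, 6 had negative log2 fold changes (48.2% of all genes had), with summed levels of 102% and 98.2% in the controls and 96.3% and 91.7% with arsenite. Of 8 germline markers, 1 had a negative log2 fold change, with sums of 96.9% and 103.1% in the controls and 103.2% and 106.9% with arsenite. Intestine, embryo and epidermis markers overlapped between conditions, the intestine being at 89.4% and 111% in the controls and at 94.5% and 105% with arsenite. The intestine sum was mostly asp-1, at 79896 and 107846 normalized counts in the controls and at 92239 and 102982 with arsenite. The embryo markers, whose sum was mostly hch-1, were at 104% and 96.4% in the controls and at 96.7% and 99.3% with arsenite. By the quasi-likelihood test 0 markers of these tissues passed. At an unadjusted p under 0.05, 1 of 8 intestine, 2 of 8 neuron and 3 of 8 epidermis markers were lower, 1 of 8 germline markers was higher, and 0 of 6 tested embryo markers passed, where 5.05% of all genes were lower and 2.16% higher. The exact test and the likelihood ratio test called 1 marker, the epidermal collagen gene col-10, and DESeq2 0. Every marker list had members above 0, so all these tissues were represented, and their part in the levels of the 6 genes was not tested.

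**Figure D5:**
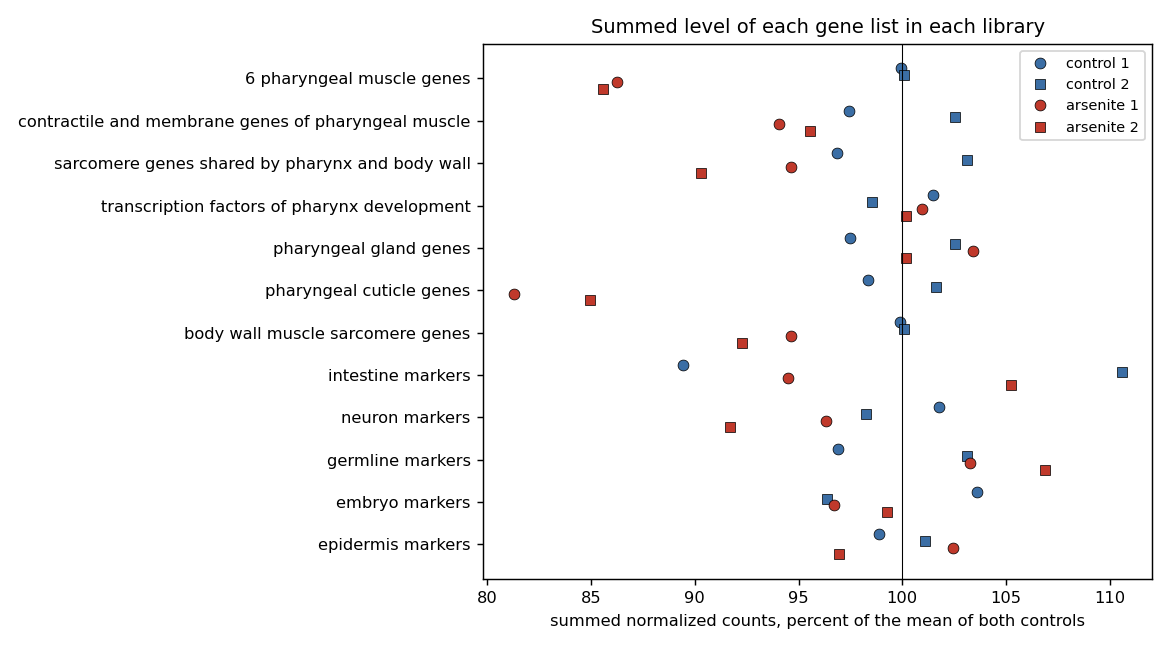
Summed normalized counts of each list in each library, as percent of the mean of both controls (x axis). Blue symbols are controls, red symbols arsenite, circles replicate 1 and squares replicate 2. The 6 genes, picked with this contrast known, were at 86.2% and 85.6% with arsenite. The intestine list, whose sum was mostly asp-1, spread from 89.4% to 111% between the controls alone.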

How the data were processed

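Libraries were made by the authors with a kit that does not mark strand, and reads were mapped with Bowtie against the genome and exon junctions. Uniquely mapped reads only were assigned to RefSeq transcripts. CASAVA, Bowtie and WBcel235 are named, without versions, in the submitters' processing notes. The authors deposited raw counts and RPKM values for 23858 transcripts and 19912 genes. The deposited count of each gene is the sum over its transcripts, and reads behind the RPKM values were recovered from counts and RPKM together.

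The 13776 genes passing filterByExpr (minimum count 10, minimum total 15) were fitted by glmQLFit of edgeR 4.0.16 (R 4.3.3) after TMM scaling, with condition alone in the model and p-values adjusted by Benjamini-Hochberg (threshold 0.05). The quasi-likelihood, exact and likelihood ratio tests are edgeR's, and DESeq2 1.42.0 was an alternative. Scripts were tested on simulated data. Normalized counts are scaled by TMM library size. Log2 fold changes are arsenite against control, and a standard error is the log2 fold change over the root of F. Counting error is the Poisson error of the count and covers counting only. Positions are from RefSeq (WBcel235), with let-75 matched by its transcript accession, and exon overlaps from Ensembl on the same build. P-values set the difference between conditions against the spread between these libraries, which may be technical. The columns of all libraries were mapped by their labels.

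Members and lists were chosen with earlier results of these data known. Genes named are the 6 genes, up to 3 per list with the smallest p, tni-4, unc-54, myo-3, the 5 genes nearest to myo-2 by Euclidean distance, and a few counterparts said to be chosen later or needed for a ratio. Alternatives were other tests, RLE, library size only, no filter, a replicate block, transcript length corrected by loess (span 0.5), counts of the transcript table, and leaving out each library. The exact test without each library was added after seeing the data.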

Additional observations from a re-analysis of the deposited data

How the results depend on the processing

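Without a filter on low counts the quasi-likelihood test called 79 genes of the whole table rather than 0 and 2 of the other pharynx and muscle genes. The exact test called 139 genes, 3 of them in those lists. For the likelihood ratio test these numbers were 157 and 3, and for DESeq2 30 and 0. With the replicate block the count was 80, with 2 of the other pharynx and muscle genes (phat-4 and pqn-71), and with the block and the length correction together both counts were 0. They also stayed at 0 with RLE, library size only, the length correction alone and the transcript table. Libraries of the same number are known to share only that number. Their deviations from the group means correlated across genes at 0.052, which cannot show whether they were handled together. With 1 library left out the quasi-likelihood test called 193 genes of the whole table without control replicate 1, 2 without control replicate 2, 158 without arsenite replicate 1 and 14 without arsenite replicate 2, and 0 to 4 of the other pharynx and muscle genes, with the spread of a lone library taken from the other condition. The exact test on 3 libraries, chosen after seeing the data, called 211 genes without control replicate 1, 258 without control replicate 2, 162 without arsenite replicate 1 and 11 without arsenite replicate 2, and 0 to 6 in those lists. The median log2 fold change of the 6 genes was -0.26 with library size only, where the median of all genes was -0.034, and -0.23 to -0.18 with 1 library left out, nearest to 0 without arsenite replicate 2. Under all 18 alternatives let-75, myo-2, tnc-2, tnt-4 and ceh-22 kept negative log2 fold changes. These settings reuse the counts with which the genes were picked, so the unchanged sign is not independent support. For pha-4 the sign turned, to 0.0035 with the length correction and 0.0035 with that and the block. The medians of all genes in those fits were 0.034 and 0.035, so pha-4 remained below them. Its log2 fold change was -0.08 with library size only. With 2 libraries per condition and 397 to 527 counts, tnc-2 and ceh-22 are limited in precision by depth.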
